A study of Mus musculus with 103 samples.

Results

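The aortic arch of 9 ApoE knockout mice was compared with that of 6 wild-type mice, all of which had received the sclerostin antibody Scl-Ab for 3 weeks. These 15 libraries, each from 1 animal, were chosen by their labels alone out of 12 groups that cross genotype, treatment and duration of dosing. Every animal of both genotypes was a female C57BL/6 mouse, was fed chow that took 42% of its energy from fat, and had been ovariectomized before dosing began, so the wild-type animals carried the same diet and the same loss of ovarian hormone. Scl-Ab was r13C7, a form of romosozumab rebuilt on rat antibody sequence, given under the skin once a week at 10 mg/kg. At collection the animals of this comparison were 12–13 weeks old. The labels name no cell type to which the ApoE knockout was restricted, and the tissue was whole perfused arch with the outer fat scraped off by swab. For reference, the same genotype comparison was available in vehicle-treated mice at week 3 (8 knockout and 8 wild type, 12–13 weeks old) and in Scl-Ab-treated mice at week 8 (10 knockout and 9 wild type, 17–18 weeks old) and week 16 (10 knockout and 8 wild type, 25–26 weeks old).

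Apolipoprotein E is the ligand by which liver receptors take up cholesterol-rich remnant particles. Mice without it accumulate these particles in plasma and, on a fat-rich diet, develop plaques in the aortic arch. Early plaques hold macrophages that swell with cholesterol esters and become foam cells, which digest lipoproteins in lysosomes and export cholesterol through ABCA1 and ABCG1 under control of the LXR receptors. Sclerostin, the product of Sost, binds the Wnt co-receptors LRP5 and LRP6 and restrains Wnt signalling; it comes mainly from osteocytes in bone, and arterial smooth muscle also makes it. The comparison addresses how the arch of the plaque-prone genotype differed from wild type early in dosing, while both genotypes received the antibody.

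Values were the authors' deposited FPKQ, a per-gene expression unit that the sources used here do not define. Differences are given as knockout minus wild type on the scale of log2(FPKQ + 1), with the standard error (SE) of a limma fit over all 12 groups and p-values adjusted by the Benjamini-Hochberg method over 13312 genes. A gene was called at an adjusted p under 0.05. Summed FPKQ ran from 539436 to 697896 in knockout libraries and from 537153 to 796713 in wild-type libraries, and the depth in reads is unknown. Knockout library 9 stood apart from the rest: its correlation with the median of the other libraries of its group was 0.8989, the lowest in the series. Summed brown fat transcripts (13 listed genes) spanned 227 to 6606 FPKQ over the knockout libraries, with the highest value in library 9, and 669 to 8640 FPKQ over the wild-type libraries, with the highest values in libraries 4 and 2. Median brown fat sums were 890 FPKQ in knockout arches and 3920 FPKQ in wild-type arches, and the ranges overlapped. Each library was therefore also given 5 carry-over scores, its mean log2 levels of brown fat, white fat, skeletal muscle, heart muscle and thymus genes. These scores entered some fits as covariates. A gene on these lists, such as Ucp1 or Fabp4, is adjusted partly for its own level. Those fits cannot decide on its difference. In whole tissue, fewer cells of a type and less RNA per cell cannot be told apart.

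Apoe, the targeted gene, was low in every knockout library. It ranged from 7.10 to 12.45 FPKQ (median 7.90) in the 9 knockout arches and from 345 to 585 FPKQ (median 386.5) in the 6 wild-type arches, without overlap. Its log2 difference was -5.45 ± 0.18 (SE; adjusted p = 5.43e-46). All 15 libraries therefore matched their genotype label at this gene. Apoc1, the neighbouring apolipoprotein gene, ranged from 5.16 to 50.8 FPKQ in knockout and from 24.7 to 427 FPKQ in wild type, with overlap, and its log2 difference was -3.35 ± 0.59 (adjusted p = 8.91e-06). With carry-over scores as covariates the Apoc1 difference was -1.86 on the log2 scale (adjusted p = 5.57e-06).

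In all, 3561 of 13312 genes passed the test (26.8%), 1794 higher in knockout (13.5% of the genes tested) and 1767 lower (13.3%). The 2 directions differed in how well they stood without the other 10 groups. When the 15 libraries were fitted alone, 894 genes passed (6.72%), 767 of which were higher (5.76%) and 127 lower (0.954%), and 763 and 126 of these were called in both fits. Group ranges were apart for 402 genes higher in knockout (3.02%) and for 24 genes lower in knockout (0.18%). Genes were tested only if enough of the 15 libraries, of either genotype, reached a minimum FPKQ. Knockout libraries outnumbered wild-type libraries, so a gene expressed only in knockout met this filter more easily than one expressed only in wild type. The part of the filter in the split of ranges apart, and of calls in these libraries alone, was not tested. Within-group spread had a median SD over genes of 0.247 in knockout, the widest of the 12 groups, and 0.21 in wild type on the log2 scale. In the other 10 groups it ran from 0.156 to 0.224. The 12-group fit shares 1 estimate of the spread per gene, so its SE draws on groups with less spread than the knockout group. The part of spread in the loss of calls was not tested. Leaving out wild-type library 4 gave 1592 calls, and leaving out wild-type library 2 gave 2106. Below, a count "in the 15-library fit" refers to the fit of these animals alone, and 13.5%, 13.3%, 5.76% and 0.954% are the shares of all genes against which each list should be read; with carry-over scores as covariates the shares were 9.92% higher and 11.6% lower.

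Macrophage genes rose together. All 20 tested general macrophage genes were higher in knockout arches, in both fits, with a median log2 difference of 1.85, and 19 of the 20 had ranges apart, against 3.02% of all genes. Cd68, a lysosomal glycoprotein used to stain macrophages, ranged from 34.5 to 146 FPKQ (median 75.4) in knockout arches and from 6.84 to 8.15 FPKQ (median 7.44) in wild-type arches. The lowest knockout library lay well above the highest wild-type library. The log2 difference of Cd68 was 3.20 ± 0.25 (adjusted p = 2.06e-19). Clec7a, the beta-glucan receptor Dectin-1, ranged from 17.3 to 66.9 FPKQ (median 33.1) in knockout and from 0.599 to 2.34 FPKQ (median 0.985) in wild type, a log2 difference of 3.98 ± 0.29 (adjusted p = 5.58e-21). Mpeg1, which encodes the pore-forming protein perforin-2, had a log2 difference of 3.71 ± 0.29 (adjusted p = 3.59e-19). The summed level of the list was 988 to 3385 FPKQ in knockout arches and 245 to 329 FPKQ in wild-type arches, and knockout library 9 held the lowest knockout value.

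**Figure D1:**
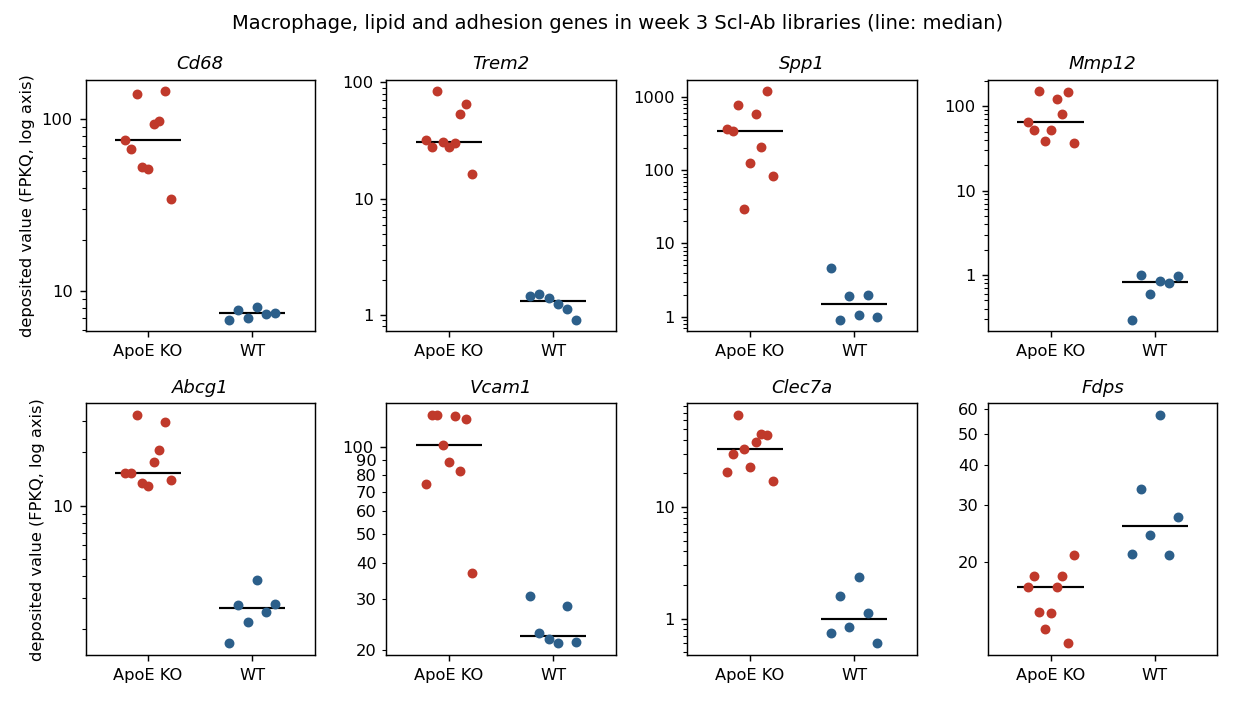
Deposited expression (FPKQ, log axis) of 8 genes in every week 3 Scl-Ab library; red points are the 9 ApoE knockout arches, blue points the 6 wild-type arches and lines the group medians. The groups do not overlap for the 7 genes other than Fdps, whose highest knockout value is 21.03 FPKQ and whose lowest wild-type value is 20.95 FPKQ.

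The genes of lipid-laden TREM2 macrophages gave the widest differences of the comparison. Of 18 tested, 13 were higher in both fits and 12 had ranges apart. Trem2, a lipid receptor of macrophages, ranged from 16.2 to 84 FPKQ (median 30.8) in knockout arches and from 0.912 to 1.51 FPKQ (median 1.34) in wild-type arches, a log2 difference of 4.04 ± 0.27 (adjusted p = 5.28e-23). Spp1, which encodes osteopontin, varied most within the knockout group: it ranged from 29.7 to 1201 FPKQ (median 340) in knockout and from 0.907 to 4.66 FPKQ (median 1.48) in wild type. For Spp1 the log2 difference was 6.57 ± 0.60 (adjusted p = 1.63e-15). Cd5l, a secreted macrophage survival protein, was 53.5 to 248 FPKQ in knockout and 0.0231 to 0.121 FPKQ in wild type, a log2 difference of 6.69 ± 0.37 (adjusted p = 5.01e-29). Mmp12, the macrophage elastase, was 36.96 to 151 FPKQ in knockout and 0.294 to 0.992 FPKQ in wild type, a log2 difference of 5.4 ± 0.3 (adjusted p = 5.85e-29). Gpnmb, a lysosome-linked membrane glycoprotein, Itgax, the integrin chain CD11c, and Atp6v0d2, a subunit of the proton pump, also had no overlap between groups, with log2 differences of 4.16 ± 0.28, 2.89 ± 0.25 and 4.46 ± 0.26.

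The other 5 members of that list did not follow. Plin2, which coats lipid droplets, had a log2 difference of -0.44 ± 0.35 (adjusted p = 0.372). Lpl, the lipase that releases fatty acids from lipoproteins, had one of -0.40 ± 0.39 (adjusted p = 0.481), and Cd9, a tetraspanin, one of 0.04 ± 0.14 (adjusted p = 0.857). Cd36, the fatty acid and oxidized lipoprotein receptor, and Fabp4, a fatty acid carrier, were lower, at -1.31 ± 0.49 (adjusted p = 0.0374) and -1.49 ± 0.56 (adjusted p = 0.0396). Neither call held in the 15-library fit (adjusted p = 0.14 and 0.122). Fabp4 ranged from 310 to 5090 FPKQ in knockout and from 702 to 6415 FPKQ in wild type. Its difference was 0.06 on the log2 scale once carry-over scores were covariates. Fabp4 belongs to the white fat score, so this fit cannot decide on its difference. These 5 genes were named after their values were seen.

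Of 12 tested genes of resident adventitial macrophages, 10 were higher, 4 of them in the 15-library fit, and the median log2 difference was 0.52. Ccl8, a chemokine, ranged from 8.77 to 83.3 FPKQ in knockout and from 2.12 to 8.52 FPKQ in wild type, and the groups did not overlap. Its difference of 2.33 ± 0.40 on the log2 scale passed (adjusted p = 4.15e-06). Mrc1, the mannose receptor CD206, had a log2 difference of 0.90 ± 0.19 (adjusted p = 0.00022). Lyve1, the hyaluronan receptor that marks tissue-resident arterial macrophages, ranged from 12.4 to 26.7 FPKQ in knockout and from 8.55 to 29.5 FPKQ in wild type, with medians of 14.2 FPKQ in knockout and 14.1 FPKQ in wild type. The log2 difference of Lyve1 was 0.17 ± 0.21 (adjusted p = 0.583). Among 7 scavenger receptor genes, 3 were higher and 1 was lower; Msr1, the class A receptor for modified lipoprotein, ranged from 4.44 to 17.4 FPKQ in knockout and from 1.14 to 1.81 FPKQ in wild type, a log2 difference of 1.98 ± 0.24.

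Promoter sequence of macrophage genes was read because the whole list moved one way. PU.1, the product of Spi1, is the factor that sets myeloid identity and binds sites with the core GAGGAA. Of the 20 tested macrophage genes, 14 had a promoter in RefSeq (GRCm38.p6), and 9 of these (64.3%) held GAGGAA on either strand within 250 bases before the start, against 26% of the 9871 tested genes with a promoter and 25.9% of 27025 genes in all. In the TREM2 list it was found in 4 of 13 (30.8%), Trem2, Spp1, Mmp12 and Cd5l. The motif was chosen after the values were seen, and a match does not show binding. The windows of 3 genes with wide differences are shown 5′ to 3′ on the strand of the gene, with the motif in capitals: Cd68 (chr11:69666171-69666420, minus strand), Clec7a (chr6:129472780-129473029, minus strand) and Trem2 (chr17:48346151-48346400, plus strand), where the match lies on the other strand and reads TTCCTC.
Cd68: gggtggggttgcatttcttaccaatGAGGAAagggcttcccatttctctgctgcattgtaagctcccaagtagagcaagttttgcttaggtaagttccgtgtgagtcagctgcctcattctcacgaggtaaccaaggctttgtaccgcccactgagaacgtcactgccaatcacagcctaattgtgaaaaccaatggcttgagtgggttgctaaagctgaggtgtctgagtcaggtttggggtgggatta
Clec7a: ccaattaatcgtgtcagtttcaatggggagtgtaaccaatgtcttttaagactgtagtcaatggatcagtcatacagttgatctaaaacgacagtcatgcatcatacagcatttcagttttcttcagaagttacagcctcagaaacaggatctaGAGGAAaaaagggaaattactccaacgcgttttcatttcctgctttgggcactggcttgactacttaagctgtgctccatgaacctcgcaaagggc
Trem2: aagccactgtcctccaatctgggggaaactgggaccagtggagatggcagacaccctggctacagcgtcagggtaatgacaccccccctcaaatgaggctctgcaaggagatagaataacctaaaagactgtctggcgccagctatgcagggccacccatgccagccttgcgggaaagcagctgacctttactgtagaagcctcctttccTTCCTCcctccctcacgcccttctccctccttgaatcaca
The match begins 225 bases before the start in Cd68, 96 before it in Clec7a and 40 before it in Trem2.

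Lysosome genes were higher in 19 of 24 cases, 12 of them in the 15-library fit, with a median log2 difference of 0.53, and none was lower. Ctss, the elastin-degrading cathepsin S, ranged from 149 to 804 FPKQ in knockout and from 16.9 to 32.3 FPKQ in wild type, a log2 difference of 3.99 ± 0.29 (adjusted p = 5.58e-21). Lgmn, the asparagine endopeptidase legumain, ranged from 83.4 to 246 FPKQ in knockout and from 48.3 to 70.4 FPKQ in wild type, a log2 difference of 1.37 ± 0.16 (adjusted p = 3.5e-11). The groups were apart for both genes, as for 8 of the 24 in the list. Ctsd, the aspartic protease cathepsin D, had a smaller difference of 0.73 ± 0.14 (adjusted p = 5.34e-05), with 696 to 1304 FPKQ in knockout and 477 to 694 FPKQ in wild type. Gla, alpha-galactosidase A, had one of 0.93 ± 0.14 (adjusted p = 1.27e-07). Lipa, the acid lipase that frees cholesterol from esters in the lysosome, ranged from 50.1 to 73.8 FPKQ in knockout and from 30.01 to 64.1 FPKQ in wild type, a log2 difference of 0.50 ± 0.14 (adjusted p = 0.00623). Summed over the list, the knockout arches held 3744 to 7734 FPKQ and the wild-type arches 2993 to 3284 FPKQ. Ctsd, Gla and Lipa were named after their values were seen.

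Many lysosome genes share the CLEAR element, bound by TFEB and its relatives, whose palindromic core is TCACGTGA. Of 18 lysosome genes with a promoter, 5 (27.8%) held TCACGTGA in the same window, Ctsa, Ctsd, Gla, Atp6v1a and Mcoln1, against 1.79% of tested genes and 0.907% of all. The shorter core CACGTG, which every such match contains, was in 9 of the 18 (50%), against 9.87% of tested genes. Of the 5 genes, Ctsa, Ctsd and Gla were called higher, and Atp6v1a and Mcoln1 did not pass. Both windows shown lie on the minus strand, Ctsd at chr7:142387828-142388077 and Gla at chrX:134601006-134601255, with TCACGTGA in capitals; Gla holds 2 matches.
Ctsd: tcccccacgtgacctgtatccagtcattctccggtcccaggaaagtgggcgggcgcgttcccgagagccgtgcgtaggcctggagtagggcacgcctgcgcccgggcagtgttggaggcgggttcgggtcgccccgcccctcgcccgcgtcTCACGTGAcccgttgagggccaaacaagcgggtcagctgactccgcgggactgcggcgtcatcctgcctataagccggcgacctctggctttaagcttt
Gla: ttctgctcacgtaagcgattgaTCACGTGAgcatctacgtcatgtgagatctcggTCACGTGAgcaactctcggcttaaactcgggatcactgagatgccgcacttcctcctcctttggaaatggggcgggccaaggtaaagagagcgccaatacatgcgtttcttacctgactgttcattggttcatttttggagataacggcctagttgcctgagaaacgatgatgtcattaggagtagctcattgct
These motifs too were chosen after the values were seen.

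Genes that draw leukocytes into the wall were higher. Of 24 chemokine and chemokine receptor genes, 20 were higher, 18 of them in the 15-library fit, and none was lower (median log2 difference 1.42). Ccl2, the monocyte attractant MCP-1, ranged from 3.65 to 36.1 FPKQ (median 11.3) in knockout and from 0.899 to 1.82 FPKQ (median 1.15) in wild type, a log2 difference of 2.42 ± 0.40 (adjusted p = 1.58e-06). Cxcl16, which is both a chemokine and a lipoprotein scavenger, ranged from 8.32 to 34.9 FPKQ in knockout and from 3.48 to 4.82 FPKQ in wild type. In both genes the groups were apart. Of 13 adhesion and integrin genes, 9 were higher in both fits. Vcam1, which holds monocytes on activated endothelium, ranged from 36.9 to 129 FPKQ (median 101.8) in knockout and from 21.04 to 30.8 FPKQ (median 22.3) in wild type, and its lowest knockout value came from library 9. Vcam1 had a log2 difference of 1.92 ± 0.26 (adjusted p = 5.79e-09). Icam1, the ligand of leukocyte integrins, and Sele, E-selectin of activated endothelium, had log2 differences of 1.03 ± 0.18 (adjusted p = 1.01e-05) and 1.77 ± 0.18 (adjusted p = 5.12e-13). General endothelial genes did not follow: of 16 tested none was higher, and Kdr and Flt1, the VEGF receptors, were lower only in the 12-group fit (adjusted p = 0.123 and 0.0992 in the 15-library fit).

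Inflammasome and interleukin 1 genes were higher in 11 of 13 cases, 8 in the 15-library fit. Il1a, the alarmin form of interleukin 1, ranged from 0.856 to 3.01 FPKQ in knockout and from 0 to 0.0511 FPKQ in wild type, a log2 difference of 1.44 ± 0.16 (adjusted p = 1.76e-11). Il1b overlapped between the groups, at 0.246 to 4.25 FPKQ in knockout and 0.104 to 0.413 FPKQ in wild type. Its log2 difference of 0.89 ± 0.26 passed in the 12-group fit (adjusted p = 0.00775) and not in the 15-library fit (adjusted p = 0.0704). Il18bp, the secreted blocker of interleukin 18, had a log2 difference of 2.31 ± 0.26 (adjusted p = 8.53e-12), and is a restraining member of the pathway. Complement genes were higher in 15 of 17 cases (11 in the 15-library fit), with C3ar1, the receptor of the C3a fragment, at 2.05 ± 0.22 (adjusted p = 4.81e-12).

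Antigen presentation genes and interferon response genes were also higher. Of 8 MHC class II genes, 7 were higher in both fits; Cd74, the invariant chain, ranged from 271 to 603 FPKQ in knockout and from 104 to 235 FPKQ in wild type, a log2 difference of 1.46 ± 0.29 (adjusted p = 0.000104). Of 21 interferon response genes, 12 were higher, 10 in the 15-library fit. Oas1a, an antiviral oligoadenylate synthetase with close gene copies that can share its reads, had a log2 difference of 1.35 ± 0.22 (adjusted p = 1.96e-06), and Ddx58, the RNA sensor RIG-I, one of 0.42 ± 0.08 (adjusted p = 0.000111). Lymphocyte genes were sparse: 4 of 20 T and NK cell genes and 3 of 12 B cell genes reached the filter on low values. Of these, Cd4 and Thy1 were higher, and fibroblasts also express Thy1. No B cell gene passed. Among 8 neutrophil and mast cell genes, Csf3r, the receptor for G-CSF, was higher (1.11 ± 0.17, adjusted p = 5.85e-07) and the other 7 did not pass. Lcn2, the iron-carrier-binding protein lipocalin-2, ranged from 9.81 to 119.2 FPKQ in knockout and from 0.953 to 5.00 FPKQ in wild type, a log2 difference of 3.25 ± 0.46 (adjusted p = 2.64e-08).

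**Figure D2:**
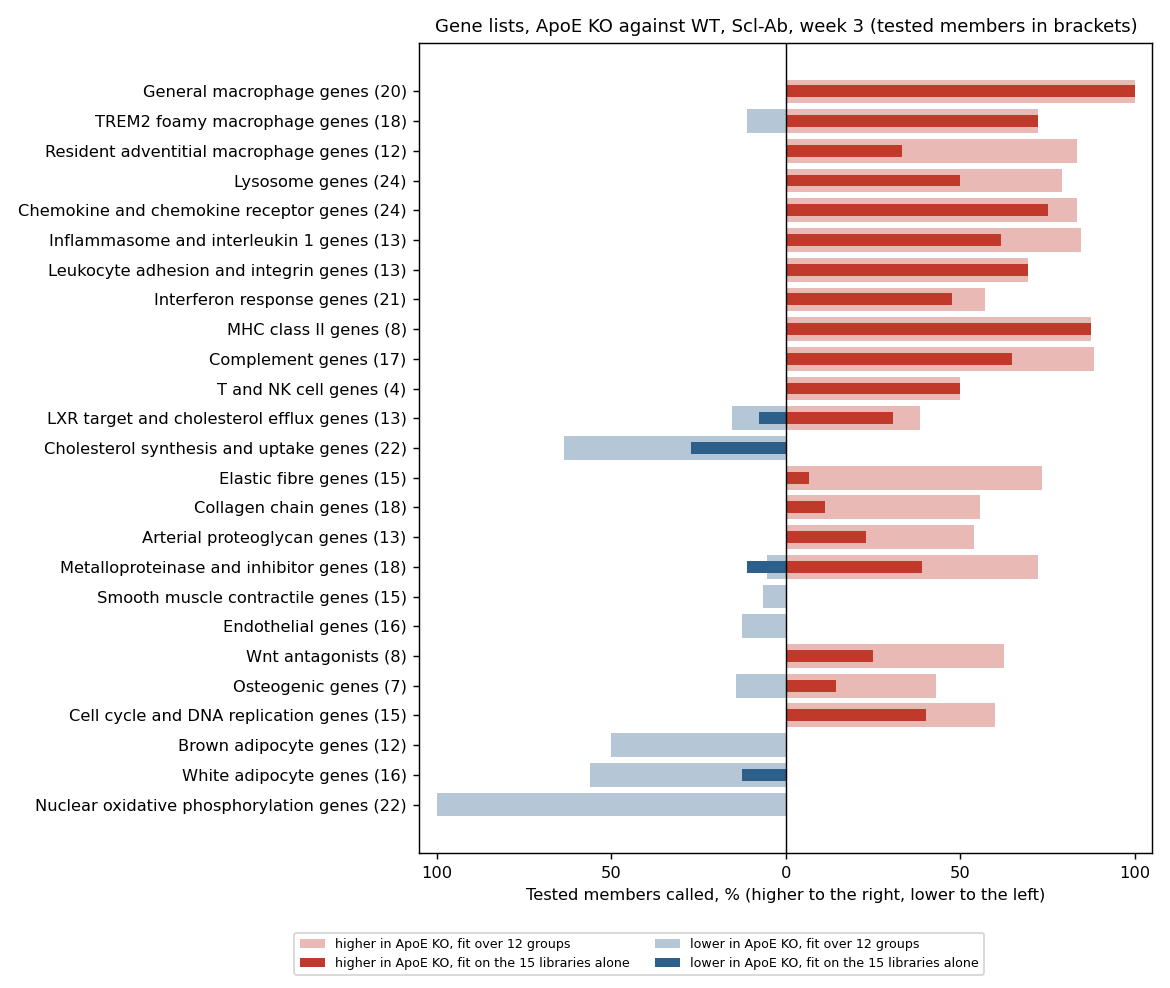
Percent of tested members of each gene list called higher (right, red) or lower (left, blue) in ApoE knockout than in wild-type arches; pale bars are the fit over 12 groups and dark bars the fit on the 15 libraries alone. Macrophage, adhesion and MHC class II bars are as long in both fits, whereas 11 of 15 elastic fibre genes and 22 of 22 oxidative phosphorylation genes are called over 12 groups and 1 and 0 in the 15-library fit.

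Cholesterol export and cholesterol synthesis genes moved apart. Abcg1, which passes cholesterol to HDL, ranged from 12.9 to 32.7 FPKQ (median 15.4) in knockout and from 1.65 to 3.77 FPKQ (median 2.61) in wild type, a log2 difference of 2.43 ± 0.21 (adjusted p = 1.19e-16). Abca1, which loads nascent HDL, ranged from 20.24 to 32.05 FPKQ in knockout and from 9.40 to 16.4 FPKQ in wild type, a log2 difference of 0.93 ± 0.13 (adjusted p = 1.25e-08). Pltp, the phospholipid transfer protein, ranged from 75.6 to 169 FPKQ in knockout and from 39.8 to 43.9 FPKQ in wild type. All 3 are LXR targets with no overlap between the groups, yet the list as a whole split: of 13 genes 5 were higher and 2 lower, with a median of -0.01.

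Of 22 tested genes of cholesterol synthesis and uptake, 14 were lower, 6 of them in the 15-library fit, and none was higher (median log2 difference -0.51). Fdps, which makes farnesyl pyrophosphate, ranged from 11.2 to 21.03 FPKQ (median 16.8) in knockout and from 20.9 to 57.4 FPKQ (median 25.9) in wild type. The groups overlapped narrowly, and the log2 difference was -0.86 ± 0.17 (adjusted p = 8.25e-05). Lss, lanosterol synthase, had a log2 difference of -0.75 ± 0.15 (adjusted p = 6.69e-05). With carry-over scores as covariates 8 of the 22 were lower and the median was -0.28.

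Contractile smooth muscle genes gave little difference. Of 15 tested none was higher, and in the 15-library fit none was lower. Acta2, smooth muscle actin, ranged from 1830 to 7202 FPKQ (median 5951) in knockout and from 3587 to 8058 FPKQ (median 5252) in wild type, and its lowest value came from knockout library 9. Acta2 had a log2 difference of -0.02 ± 0.19 (adjusted p = 0.95). Myh11, smooth muscle myosin, had one of 0.25 ± 0.18 (adjusted p = 0.318). With the 5 libraries of high carry-over left out, knockout library 9 among them, 4 of the 15 were higher and 1 was lower (21.3% and 19.2% of all genes), and with carry-over scores as covariates none was higher and 3 were lower.

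Matrix genes were higher in the 12-group fit and mostly did not pass in the 15-library fit. Of 15 elastic fibre genes 11 were higher against 1 (Ltbp2) in the 15-library fit, and of 18 collagen genes 10 against 2 (Col3a1 and Col8a1). Eln, tropoelastin, ranged from 110 to 727 FPKQ (median 526) in knockout and from 142 to 427 FPKQ (median 250) in wild type, with knockout library 9 below every wild-type value. Its log2 difference was 0.92 ± 0.28 (adjusted p = 0.012 over 12 groups, 0.136 in the 15-library fit and 0.0808 with carry-over scores). Col3a1, the fibrillar collagen of pliable tissue, was firmer at 1.05 ± 0.17 (adjusted p = 1.57e-06 over 12 groups and 0.0121 in the 15-library fit), with 216 to 720 FPKQ in knockout and 162 to 346 FPKQ in wild type. Col8a1, a short-chain collagen of the vessel wall, had a log2 difference of 1.78 ± 0.29 and groups apart, at 5.75 to 24.3 FPKQ in knockout and 2.03 to 4.30 FPKQ in wild type.

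Enzymes that cut matrix were clearer. Of 18 metalloproteinase and inhibitor genes, 13 were higher and 1 lower, and in the 15-library fit 7 were higher and 2 lower. Beside Mmp12, Adam8, a leukocyte sheddase, ranged from 3.32 to 14.8 FPKQ in knockout and from 0.348 to 0.783 FPKQ in wild type, a log2 difference of 2.28 ± 0.23 (adjusted p = 1.54e-13). Timp1, the secreted inhibitor of these enzymes, had a log2 difference of 2.24 ± 0.36 (adjusted p = 6.66e-07), and Mmp13, an interstitial collagenase, one of 0.77 ± 0.27 (adjusted p = 0.0291). Mmp9, gelatinase B, did not pass (0.31 ± 0.22, adjusted p = 0.294). Timp1, Mmp13 and Mmp9 were named after their values were seen. Of 13 proteoglycan genes 7 were higher, 3 of them in the 15-library fit, with Sdc3, a heparan sulfate proteoglycan, at 1.31 ± 0.20 (adjusted p = 2.82e-07). Cell cycle genes were higher in 9 of 15 cases, 6 in the 15-library fit, with the mitotic kinase Cdk1 at 0.86 ± 0.17 (adjusted p = 5.05e-05).

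Fat and respiratory genes were lower in knockout, and these calls rested on the 12-group fit. Brown fat genes were lower in 6 of 12 cases and in 0 of 12 in the 15-library fit; white fat genes in 9 of 16 and 2 of 16; nuclear oxidative phosphorylation genes in 22 of 22 and 0 of 22, with medians of -1.69, -1.32 and -1.12. Ucp1, the uncoupling protein of brown fat, ranged from 49.2 to 1989 FPKQ (median 290.1) in knockout and from 229 to 3125 FPKQ (median 1336) in wild type. The difference in Ucp1 was -2.21 ± 0.79 (adjusted p = 0.0295 over 12 groups, 0.0804 in the 15-library fit). With carry-over scores as covariates it was -0.05, but Ucp1 belongs to the brown fat score, so this fit cannot decide on it. Ndufs1, a subunit of respiratory complex I, ranged from 23.8 to 176 FPKQ in knockout and from 44.0 to 188 FPKQ in wild type, a log2 difference of -1.13 ± 0.30 (adjusted p = 0.00387). Library 9 held the highest knockout value of both genes, and wild-type libraries 4 and 2 the highest wild-type values. With carry-over scores 15 of the 22 respiratory genes stayed lower, at a median of -0.34. Fasn and Elovl6, which build fatty acids, and Gpd1, of glycerol phosphate metabolism, were lower by 1.98, 2.02 and 2.07 on the log2 scale, and none passed in the 15-library fit (adjusted p = 0.0578, 0.0643 and 0.0805). Lep and Plin4 of the white fat list passed in both fits, at -1.37 ± 0.35 and -0.60 ± 0.15. Perivascular fat left on the arch was not measured, and its part in these results was not tested.

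**Figure D3:**
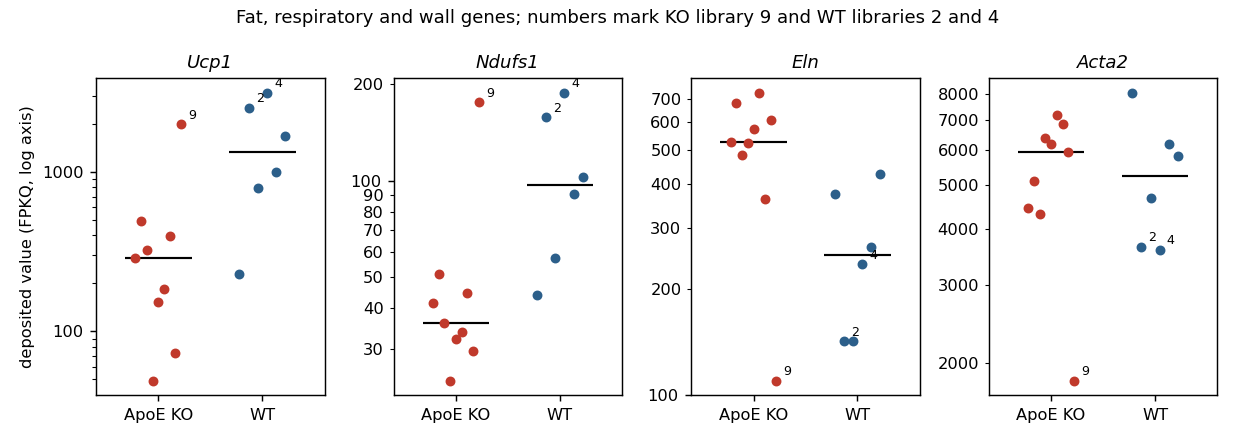
Deposited expression (FPKQ, log axis) of Ucp1, Ndufs1, Eln and Acta2 in every week 3 Scl-Ab library; red points are ApoE knockout, blue points wild type, lines are medians, and numbers mark knockout library 9 and wild-type libraries 2 and 4. Knockout library 9 holds the highest knockout Ucp1 and Ndufs1 and the lowest Eln and Acta2 of all 15 arches.

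Sost itself, the target of the antibody, was expressed in every arch. It ranged from 128 to 406 FPKQ (median 274) in knockout and from 218 to 510 FPKQ (median 329) in wild type, with overlap. Its log2 difference was -0.44 ± 0.23 and did not pass (adjusted p = 0.149; 0.0485 with carry-over scores). Lrp5, a receptor that sclerostin blocks, was lower in both fits, at 10.96 to 17 FPKQ in knockout and 16.7 to 19.6 FPKQ in wild type, a log2 difference of -0.36 ± 0.11 (adjusted p = 0.0132). Lrp4, which presents sclerostin to those receptors, was 0.29 ± 0.09 higher in the 12-group fit only (adjusted p = 0.0135; 15-library fit 0.138).

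Wnt target genes gave no common direction. Of 10 tested, 2 were higher and 1 lower, with a median of -0.04. Axin2, the feedback scaffold that marks active beta-catenin signalling, ranged from 0.991 to 4.40 FPKQ (median 1.50) in knockout and from 1.76 to 5.58 FPKQ (median 2.79) in wild type. Its log2 difference was -0.57 ± 0.15, called over 12 groups (adjusted p = 0.00295) and not in the 15-library fit (adjusted p = 0.12). Ccnd1, cyclin D1, moved the other way, at 0.69 ± 0.20 (adjusted p = 0.00766), and passed in both fits. Among 8 secreted Wnt antagonists 5 were higher, 2 in the 15-library fit. Dkk2, a Dickkopf ligand of LRP5 and LRP6, ranged from 1.31 to 4.28 FPKQ (median 2.79) in knockout and from 0.226 to 0.890 FPKQ (median 0.560) in wild type, without overlap, a log2 difference of 1.2 ± 0.17 (adjusted p = 5.22e-08). Sfrp4, which sequesters Wnt ligands, ranged from 18.6 to 181 FPKQ in knockout and from 17.6 to 34.5 FPKQ in wild type, a log2 difference of 1.37 ± 0.32 (adjusted p = 0.000887; 15-library fit 0.0527). Of 7 Wnt ligands, Wnt5a and Wnt5b were higher in the 12-group fit only, by 0.42 ± 0.16 and 0.33 ± 0.11.

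Of 7 tested osteogenic genes 3 were higher, Spp1, Col1a1 and Sparc, and Phospho1 was lower; in the 15-library fit Spp1, which macrophages also make, was the only one called. Of 10 genes of mineralization inhibitors and phosphate handling 2 were higher, none in the 15-library fit, and the median log2 difference was 0.26. Slc20a1, a phosphate transporter, had a log2 difference of 0.26 ± 0.08 (adjusted p = 0.00848), and Vkorc1, the vitamin K epoxide reductase subunit, had 0.42 ± 0.15 (adjusted p = 0.0307). Both overlapped between the groups. Alpl, the phosphatase that frees mineral from pyrophosphate inhibition, ranged from 3.93 to 13.5 FPKQ in knockout and from 6.37 to 9.57 FPKQ in wild type, a log2 difference of 0.00 ± 0.21 (adjusted p = 0.987). Mgp, the matrix Gla protein that inhibits arterial calcification, had one of 0.46 ± 0.22 (adjusted p = 0.109), and Tnfrsf11b, osteoprotegerin, one of 0.58 ± 0.29 (adjusted p = 0.129). Runx2 and Col2a1, regulators and matrix of bone and cartilage, did not reach the filter on low values. Ctsk, the collagenolytic cathepsin of osteoclasts and macrophages, was higher in both fits, at 1.12 ± 0.18 (adjusted p = 1.58e-06), and was the one member of 9 osteoclast genes to pass in the 15-library fit. Of 8 cartilage genes 1 was higher and 1 lower, and of 15 BMP pathway genes 1 was higher.

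Stress, timing and TGF-beta lists gave mixed counts, to be read against 13.5% higher and 13.3% lower over all genes. Of 18 immediate early genes 2 were higher, Atf3 (1.22 ± 0.25, adjusted p = 0.000101) and Egr2 (0.79 ± 0.16, adjusted p = 0.000117), and of 19 clock genes 1, Clock, was lower in the 12-group fit only. Of 15 glucocorticoid-induced genes 3 were lower and 1, Lcn2, was higher; Fkbp5, a chaperone of the receptor, ranged from 9.02 to 19.3 FPKQ in knockout and from 7.67 to 126.5 FPKQ in wild type and did not pass (-1.12 ± 0.48, adjusted p = 0.0694). Of 20 heat shock and ER stress genes 7 were higher, 1 of them, Sdf2l1, in the 15-library fit (1.14 ± 0.20, adjusted p = 1.06e-05). Of 15 TGF-beta genes 5 were higher, and Tgfb1 (0.63 ± 0.14, adjusted p = 0.000689) was the one that passed in both fits.

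In vehicle-treated animals of the same week, which share no library with this comparison, 19 of the 20 macrophage genes were higher in knockout (median log2 difference 1.67), against 11.6% of all tested genes. None of the 20 passed a test of the difference between the knockout effects under Scl-Ab and under vehicle. Of the 18 genes of lipid-laden TREM2 macrophages, 15 were higher under vehicle, with a median of 2.19. Cd68 had log2 differences of 3.20 ± 0.25 under Scl-Ab and 2.72 ± 0.24 under vehicle, and their difference was 0.48 ± 0.34 (adjusted p = 0.323). Abcg1, a target of the LXR receptors, had 2.43 ± 0.21 under Scl-Ab and 2.36 ± 0.20 under vehicle. Over all genes, 913 calls were shared in direction and 136 were opposite. The 913 are 25.6% of the Scl-Ab calls and 26.4% of the vehicle calls. Of the 1794 genes higher under Scl-Ab, 742 were also higher under vehicle, against 11.6% of all genes. Of the 1767 lower genes, 171 were also lower under vehicle. Counting both directions, 26% of all genes were called under vehicle. The week 8 and week 16 comparisons called 32.8% and 44.7% of all genes in either direction. They shared 1500 and 1580 calls in direction with the week 3 Scl-Ab comparison. A test of the difference between the knockout effects under Scl-Ab and under vehicle called 2645 genes over 12 groups (19.9%), 1028 higher (7.72%) and 1617 lower (12.1%); after rescaling by median of ratios the split was 652 higher and 1856 lower. When the week 3 libraries were fitted alone limma called 0 genes, with 3067 at an unadjusted p under 0.05; with carry-over scores it also called 0, with 1651 at an unadjusted p under 0.05. The like number in the 12-group fit was 4536. Spp1 (2.36 ± 0.83, adjusted p = 0.0341), Trem2 (1.15 ± 0.38, adjusted p = 0.0223), Col3a1 (1.24 ± 0.24, adjusted p = 0.00161) and Eln (1.74 ± 0.39, adjusted p = 0.00475) had a higher knockout effect under Scl-Ab over 12 groups. On the week 3 libraries alone their adjusted p were 0.202, 0.164, 0.151 and 0.151. Ucp1 had a difference of -3.40 ± 1.09 (adjusted p = 0.0201), and 0.08 with carry-over scores, to which Ucp1 itself belongs. Eln differed in sign between treatments, with 0.92 ± 0.28 under Scl-Ab and -0.82 ± 0.27 under vehicle.

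**Figure D4:**
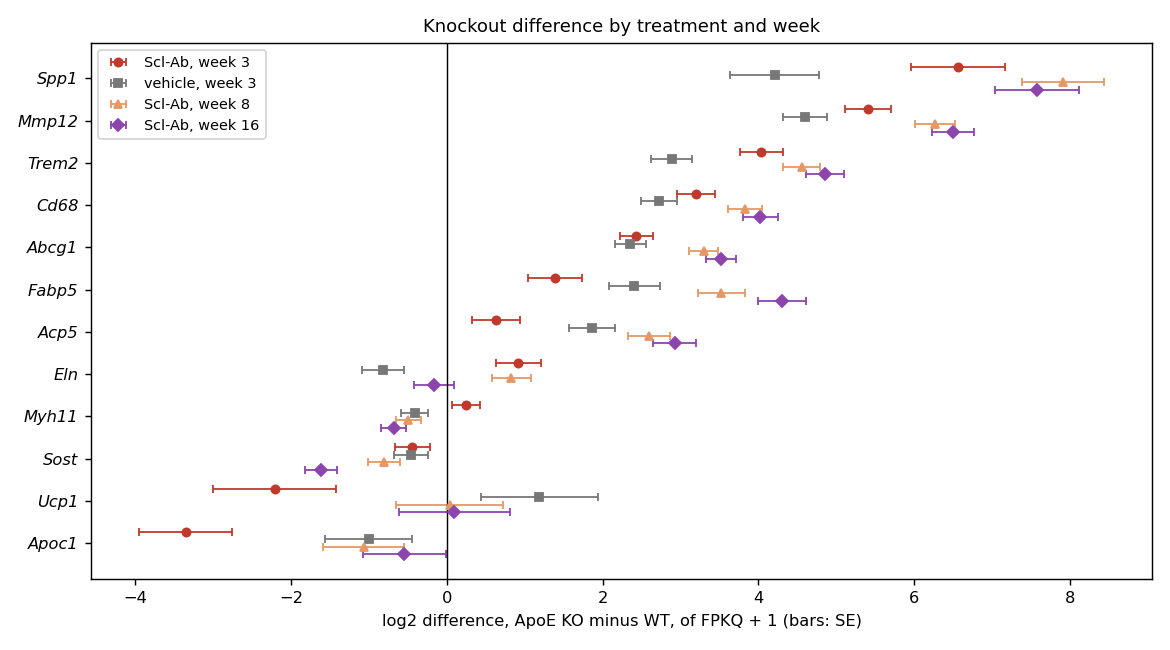
Log2 difference between ApoE knockout and wild type, on log2(FPKQ + 1), with SE bars, for 12 genes under Scl-Ab at week 3 (red circles), vehicle at week 3 (grey squares) and Scl-Ab at weeks 8 (orange triangles) and 16 (purple diamonds). Spp1, Mmp12, Trem2, Cd68, Abcg1, Fabp5 and Acp5 lie right of 0 throughout, and Eln lies right of 0 under Scl-Ab at week 3 (0.92) and left of it under vehicle (-0.82).

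At later times of Scl-Ab the knockout effect was tested against that of week 3. Of the 18 genes of lipid-laden TREM2 macrophages, 3 had a higher knockout effect at week 8 and 14 at week 16, against 1.53% and 10.8% of all tested genes, with none lower. Medians of the change were 0.78 and 1.09 on the log2 scale. With the compared libraries alone these counts were 1 and 10, and with carry-over scores 0 and 10. Over all 13312 tested genes, 12 and 586 had a higher effect with the compared libraries alone. With carry-over scores 2 and 257 of all genes did. Of the 20 general macrophage genes, 0 and 3 had a higher effect over 12 groups. The 2 lists were not tested against each other. Cd68 had log2 differences of 3.20, 3.83 and 4.03 at weeks 3, 8 and 16, and the change to week 16 was 0.82 ± 0.33 (adjusted p = 0.058). Fabp5, a fatty acid carrier of lipid-laden macrophages, had log2 differences of 1.39 ± 0.34, 3.52 ± 0.30 and 4.31 ± 0.31. Its change was 2.13 ± 0.46 to week 8 (adjusted p = 0.00975) and 2.92 ± 0.46 to week 16 (adjusted p = 1.24e-05). The change to week 8 lost its call with carry-over scores and when some single library was left out. Its knockout medians were 148, 235 and 301 FPKQ at weeks 3, 8 and 16, and its wild-type medians were 60.3, 17.6 and 12.7 FPKQ, so the knockout and wild-type medians moved in opposite directions. Acp5, tartrate-resistant acid phosphatase, did not pass at week 3 (0.64 ± 0.31, adjusted p = 0.117) and had 2.60 ± 0.27 and 2.92 ± 0.28 later. Lipa had 0.50, 1.39 and 1.70 at the same times, and Plin2 had -0.44, 1.40 and 1.75.

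Between week 3 and week 8 the test called 469 genes (3.52%), 204 higher (1.53%) and 265 lower (1.99%), against 222 higher and 79 lower after rescaling by median of ratios. It called 14 (0.105%) when the libraries of these groups were fitted alone, and 1 when wild-type library 4 of week 3 was left out. Between week 3 and week 16 it called 3204 genes (24.1%), 1436 higher (10.8%) and 1768 lower (13.3%), against 1878 higher and 1074 lower after that rescaling, and 1236 (9.28%) on the libraries of these groups alone. Fabp5, Lipa, Acp5, Mmp13, Alpl and Chad each had a higher knockout effect at week 16 with the 12 groups, with the groups alone and with carry-over scores. For Alpl the change was 1.44 ± 0.28 (adjusted p = 0.000338), for Mmp13 2.09 ± 0.37 (adjusted p = 7e-05) and for Chad, the cartilage matrix protein chondroadherin, 3.09 ± 0.72 (adjusted p = 0.00218). Knockout medians of Chad were 1.32 FPKQ at week 3 and 25.6 FPKQ at week 16, and wild-type medians were 1.63 and 1.91 FPKQ. Sost changed by -1.18 ± 0.31 (adjusted p = 0.00577), with a log2 difference of -1.62 ± 0.21 at week 16; with carry-over scores the change did not pass (adjusted p = 0.0632). The week 3 wild-type libraries with high brown fat sums enter each of these changes, and their part was not tested.

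In all 4 comparisons, 833 genes (6.26%) were called in the same direction, 708 higher and 125 lower, and the genes near Apoe on chromosome 7 were counted apart. Of 87 tested genes within 5 Mb of Apoe, itself left out, 34 were called at week 3 under Scl-Ab (39.1%), against 22.3% of the 256 genes at 5 to 20 Mb and 26.7% of all other tested genes, a set that includes genes with no position. In all 4 comparisons 18 of the 87 were called in the same direction (20.7%), 5 higher and 13 lower, against 6.25% at 5 to 20 Mb and 6.13% of all other tested genes. Group ranges were apart for 9 of the 87 (10.3%), against 2.73% and 3.17%. Gm45104, a predicted transcript 1.3 Mb from Apoe (chr7:18396516-18400865, GRCm38), had log2 differences of 2.5 and 2.31 under Scl-Ab and vehicle at week 3, and of 2.37 and 2.08 under Scl-Ab at weeks 8 and 16. Pnmal2 had 1.2 under Scl-Ab at week 3, and 9330104G04Rik, a long noncoding RNA, had -0.72. Bcam, which encodes a laminin receptor and lies 0.07 Mb from Apoe, had -0.46 ± 0.16 (adjusted p = 0.027). The Apoe null allele was made in embryonic stem cells of another mouse strain and then bred to C57BL/6, and flanking DNA of the donor strain can travel with such an allele. Whether it did here was not tested. The window was chosen after the values were seen.

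**Figure D5:**
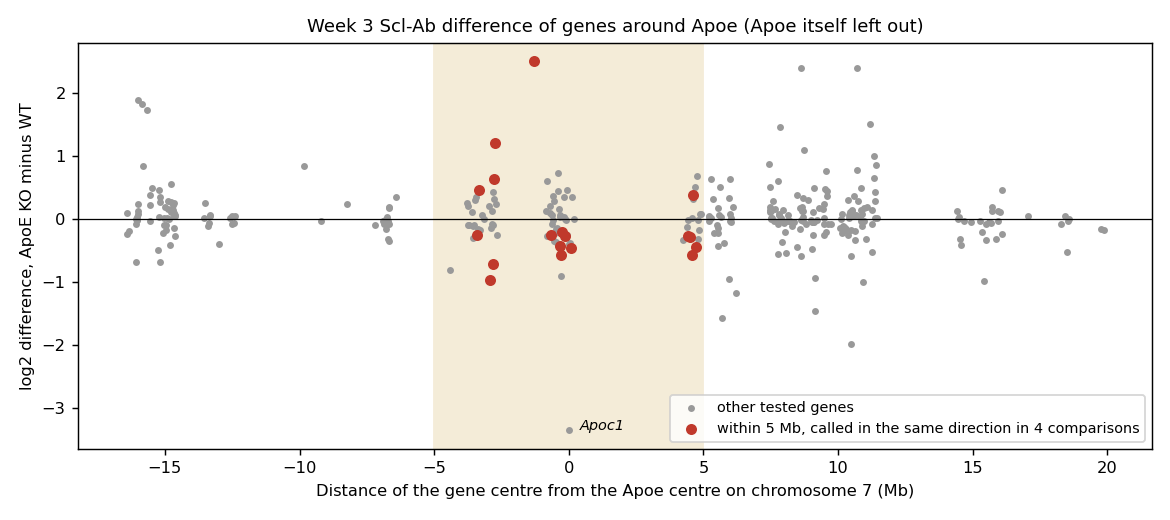
Log2 difference between ApoE knockout and wild type under Scl-Ab at week 3 for tested genes of chromosome 7 within 20 Mb of Apoe. The horizontal axis is the distance of the gene centre from the centre of Apoe in Mb, and shading marks 5 Mb on either side. Red points are the 18 genes in the shaded window called in the same direction in all 4 comparisons, and Apoe, at -5.45, is left out.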

How the data were processed

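Aortic arch RNA was sequenced from TruSeq stranded mRNA libraries, 1 per animal, per the labels' protocols. The authors deposited 1 table of FPKQ per library, a unit the file headers name and do not define; it was handled as FPKM, fragments per kilobase scaled by the authors. The submitters' processing notes name build GRCm38 and DESeq2 1.10.1; the sources used here do not name the aligner, the annotation or whether counting used strand. The labels assign no library to a sequencing batch. Depth in reads is unknown, so no counting interval is given.

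From the deposited values, 13312 of 51456 symbols with FPKQ of at least 1 in at least 5 of the 15 libraries were tested. Values were log2(FPKQ + 1), which understates differences of low genes. limma 3.58.1 (R 4.3.3) fitted 12 group means over all libraries with a robust trended variance, and p-values were adjusted over all 13312 genes. The fit was run on simulated data with independent genes and the same spread in every group. Such data cannot show how carry-over or unequal spread affects the calls. No pair of libraries was identical. Alternatives changed the pseudocount, filter, scaling, libraries, weights, replicate block and covariates. Gene positions came from GENCODE M21 (13033 tested genes matched), and promoters from RefSeq GRCm38.p6. The named genes were a fixed set, the 8 highest and 8 lowest called, and up to 2 called genes of each list by adjusted p, with exceptions stated, and a few of these genes are not reported here; tests of a difference named the 5 highest and 5 lowest and 1 per list. Members, lists and tests were chosen with earlier results of these data known.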

Additional observations from a re-analysis of the deposited data

Results flagged for a closer look

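Of 194 groups of values over 97 genes, 14 had a sample far from the others, and chance marks about 1 in 20 groups. Of the 14, 10 were knockout library 9, where Acta2 was 1830 FPKQ, Eln 109.8, Mfap4 166.6, Mgp 2672, Tgfb1 12.1, Vcam1 36.94 and Ctsa 59.98, each the lowest of the knockout group, and Ndufb3 209.4, Ndufs1 176 and Sox6 6.264, each the highest. The other 4 lay in wild type, with Cd5l at 0.1209 in library 5, Ltbp2 at 19.5 and Msr1 at 1.807 in library 3, and Mpeg1 at 7.766 in library 4.

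The knockout effect differed between Scl-Ab and vehicle at week 3 over 12 groups. Spp1 differed by 2.36 on the log2 scale, Trem2 by 1.15, Eln by 1.74, Col3a1 by 1.24, Myh11 by 0.66 and Errfi1 by 2.13, all higher under Scl-Ab. Axin2 differed by -0.75, Cd36 by -2.36, Elovl3 by -3.47, Plin2 by -1.74 and Ucp1 by -3.4. None of the 11 passed with the compared libraries alone or with carry-over scores. Elovl3 and Ucp1 belong to the brown fat score, so the fit with scores cannot decide on them.

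The knockout effect under Scl-Ab differed between week 8 and week 3 by 1.96 for Acp5, 1.6 for Cxcl14, 2.13 for Fabp5, 0.89 for Lipa and 1.84 for Plin2. Cxcl14 and Plin2 did not pass with the compared libraries alone, none of the 5 passed with carry-over scores, and each lost its call when some single library was left out. Between week 16 and week 3 it differed by 0.61 for Abca1, 1.09 for Abcg1, 2.29 for Acp5, 1.44 for Alpl, 2.81 for Apoc1, 3.09 for Chad, 2.03 for Cxcl14, 2.92 for Fabp5, 1.22 for Gpnmb, 1.19 for Lipa, 1.1 for Mmp12, 2.09 for Mmp13 and 2.19 for Plin2. It differed by -0.76 for Acta2, -1.09 for Eln, -0.93 for Myh11, -1.18 for Sost and -0.73 for Wnt5a. Of these 18 genes, Acta2, Eln and Mmp12 did not pass with the compared libraries alone. With carry-over scores 8 did not pass, Abcg1, Apoc1, Mmp12, Acta2, Eln, Myh11, Sost and Wnt5a, and Acta2, Eln, Mmp12 and Wnt5a lost the call when some single library was left out.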

How the results depend on the processing

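The number of calls for the knockout difference under Scl-Ab at week 3 was between 2670 and 5133 under another pseudocount, filters, scalings, array weights, runs of animal numbers, carry-over scores, fat scores and clock components, against 3561 in the fit over 12 groups. There were 894 with the compared libraries alone, 1151 with the week 3 libraries, 5394 without the 5 libraries of high carry-over, 1321 at 1.5-fold or more, and 1592 to 5101 with 1 library left out. An added fit chosen after seeing the data, without knockout library 9 and wild-type libraries 2 and 4, gave 1608. Of 97 named genes 87 were called, and 18 lost the call when some single library was left out, 26 with the compared libraries alone and 15 with carry-over scores. Fabp4 turned to 0.0573 with carry-over scores and 0.0261 with fat scores, and Ucp1 for Scl-Ab minus vehicle turned to 0.0763 with carry-over scores. Both genes belong to the scores used, so these fits cannot decide on them.

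The difference between Scl-Ab and vehicle (2645) gave 0 with the compared libraries alone, which are also the week 3 libraries, and 0 with carry-over scores, 3 with clock components, 4 with fat scores (added), 5930 with array weights, 5563 without high carry-over, 972 without the 3 libraries (added), 1525 at 1.5-fold and 1056 to 4247 with 1 library left out. Wild-type library 2 (1375) or 4, knockout library 9 (4206), and vehicle libraries wild-type 4 and knockout 1 (1374) each moved it by over 1.5 times. The change to week 8 (469) gave 294 with a pseudocount of 0.1, 65 without filter, 301 with median of ratios, 14 with the compared libraries alone, 3872 with array weights, 266 with runs, 2 with carry-over scores, 38 with clock components, 3726 without high carry-over, 5 without the 3 libraries, 3 with fat scores, 237 at 1.5-fold and 1 to 3066 with 1 library left out. The change to week 16 (3204) gave 1236 with the compared libraries alone, 423 with carry-over scores, 729 with clock components, 846 without the 3 libraries, 463 with fat scores, 1536 at 1.5-fold and 1126 to 4742 with 1 library left out, lowest without wild-type library 4. The cause was not tested.

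Deviations of animals with the same title number correlated from -0.593 to 0.245, which cannot decide whether animals were paired by number. A replicate block by title number gave 972 calls for the knockout difference, 0 for Scl-Ab minus vehicle and 2720 for the change to week 8; a block by animal number gave 1516, 0 and 2046. Depth in reads is unknown, so the limit it sets on low genes is not given.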
